A study of Mus musculus with 6 samples.

Results

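Toll-like receptors (TLRs) are the innate sensors of microbial molecules and of some products of damaged tissue, and 8 of them (Tlr1, Tlr2, Tlr3, Tlr4, Tlr6, Tlr7, Tlr8 and Tlr9) were followed here together with the co-receptor gene Cd14 and the adaptor gene Myd88. The 10 genes were chosen by symbol, all 10 were found among the 55487 genes measured, and all 10 passed the filter on low counts. Whole dorsal skin of mice was compared on day 2 between 3 libraries labelled DPCP+Codrosome and 3 labelled DPCP+Encapsome. Both groups received DPCP (diphencyprone), a chemical that sensitizes skin and causes contact allergy. In the first group it was combined with clodrosome, clodronate-filled liposomes that are toxic to phagocytes after uptake. The second received encapsome, the same kind of liposome without clodronate, as the control. Strain, genotype, sex and age are not given in the labels used here, and there was no group without DPCP or without liposomes. By its title the series asked what macrophages do when hair regenerates after a contact allergy.

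A TLR binds its ligand with a horseshoe-shaped domain of leucine-rich repeats and passes the signal on through a TIR domain inside the cell. Tlr2 pairs with Tlr1 or Tlr6 at the cell surface to detect bacterial lipopeptides, and Tlr4 detects lipopolysaccharide together with Ly96 (MD-2), to which Cd14 hands the ligand. Tlr3, Tlr7, Tlr8 and Tlr9 sit in endosomes and detect nucleic acids. All of these receptors except Tlr3 signal through Myd88, which recruits IRAK kinases and leads to NF-kB activation. In skin, TLRs are found on resident and recruited phagocytes, and some of them also on keratinocytes, endothelial cells and fibroblasts.

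Values are CPM, read counts scaled for library depth, with means ± SD over n = 3 libraries per group. Differences are log2 fold changes of clodrosome against encapsome ± SE from edgeR's quasi-likelihood test, and a gene is called lower or higher at a Benjamini-Hochberg adjusted p under 0.05 over all 17988 genes tested. Total counts were 116965654 in clodrosome library A and between 26649396 and 35566351 in the other 5. The least abundant member, Tlr9, still had well over 100 counts in each library. The labels do not say whether libraries came from separate animals, so p-values refer to library-to-library spread alone, which may be technical. The share of counts in ribosomal RNA genes was 0.334% to 0.481% in 3 libraries (A and C of clodrosome, A of encapsome), and 0.788% to 0.845% in the other 3, and the labels name no batch.

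The macrophage genes were lower in clodrosome skin. Adgre1, which encodes the macrophage surface protein F4/80, was at 90.7 ± 25.7 CPM in clodrosome skin and 242 ± 28.0 CPM in encapsome skin, and Cd68 and Mrc1 were lower by 2.01 and 1.97 on the log2 scale in their means (edgeR adjusted p 8.58e-04, 3.40e-04 and 0.00166 for the 3 genes in that order). All 12 macrophage markers examined were lower, against 13.0% of all genes tested. Their summed level was 545 to 1370 CPM in clodrosome libraries and 3400 to 4020 CPM in encapsome libraries, with clodrosome B the lowest for each of the 12. All 7 fibroblast markers were lower as well, with a summed level of 2250 to 4310 CPM against 8110 to 9580 CPM.

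Of the 10 members, 6 were lower in clodrosome skin (Tlr1, Tlr4, Tlr6, Tlr7, Tlr8 and Tlr9), where 13.0% of all genes tested were called lower. Cd14 alone was called higher, against 9.41% of all genes. Tlr2, Tlr3 and Myd88 did not pass the test. The median log2 fold change was -0.58 over the members and 0.01 over all genes tested. The 3 libraries of one group lay wholly apart from those of the other for 8 members, 6 lower and 2 higher, which was so for 40.2% of all genes (20.7% lower and 19.5% higher). In whole skin, fewer cells of a type and less RNA per cell cannot be told apart, and this holds for every value below.

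**Figure D1:**
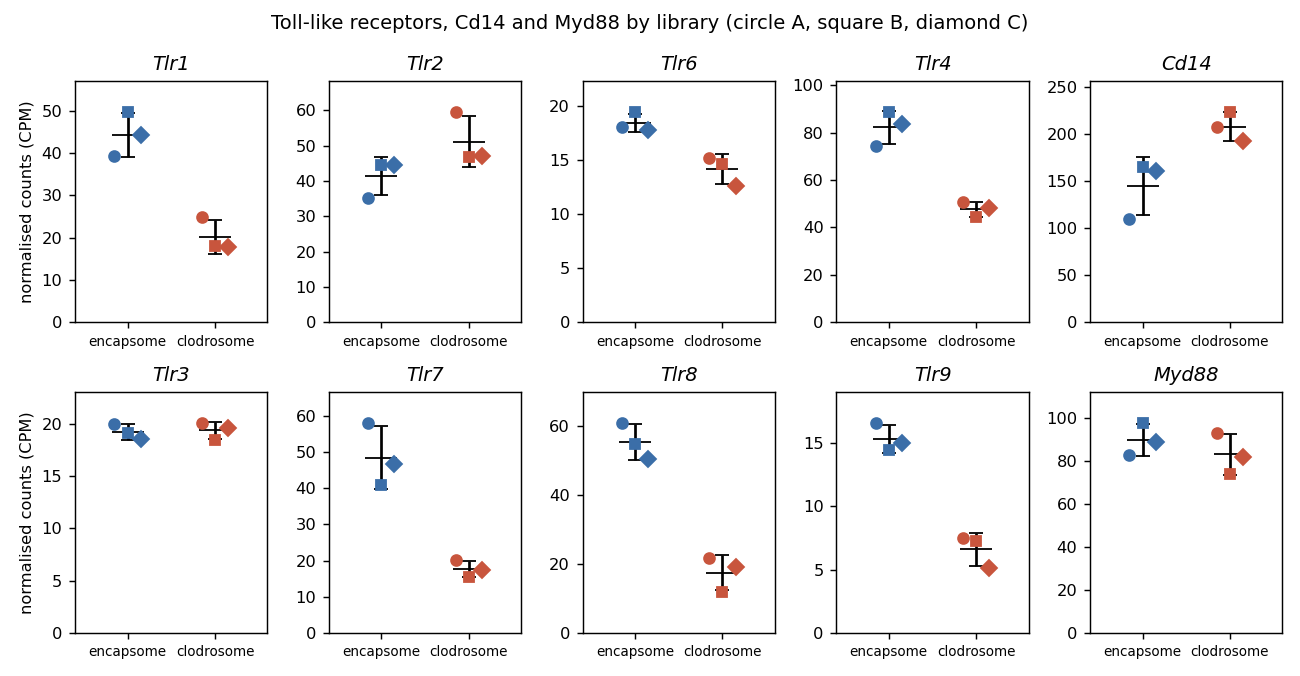
CPM of each of the 10 genes (linear axes from 0) in the 3 encapsome and 3 clodrosome libraries, 1 point per library (circle A, square B, diamond C), with lines for the group mean and bars for ± 1 SD. The points of Tlr1, Tlr4, Tlr6, Tlr7, Tlr8 and Tlr9 lie lower in clodrosome skin with no overlap, those of Cd14 and Tlr2 lie higher, and those of Tlr3 and Myd88 overlap.

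The DNA just upstream of the deposited gene starts is shown for the 5 receptors with a RefSeq window that reaches past that start. Of these Tlr1, Tlr6, Tlr8 and Tlr9 were lower and Tlr2 was not. RefSeq promoter windows on GRCm38.p6 were matched for 7 of the 10 genes. Sequences run 5′ to 3′ on the gene's strand in lower case, with capitals for a match to a searched motif. The windows are Tlr2 at chr3:83841768-83841858 (minus strand), Tlr1 at chr5:64933564-64933808 (minus strand), Tlr6 at chr5:64960098-64960298 (minus strand), Tlr9 at chr9:106222348-106222597 (plus strand) and Tlr8 at chrX:167264330-167264579 (minus strand).
Tlr2: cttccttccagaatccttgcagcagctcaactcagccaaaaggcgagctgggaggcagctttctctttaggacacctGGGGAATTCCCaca
Tlr1: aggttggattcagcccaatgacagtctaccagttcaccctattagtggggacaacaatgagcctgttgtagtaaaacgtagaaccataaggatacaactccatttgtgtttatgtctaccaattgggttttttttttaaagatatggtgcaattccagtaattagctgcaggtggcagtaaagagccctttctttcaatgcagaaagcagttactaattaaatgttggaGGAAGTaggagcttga
Tlr6: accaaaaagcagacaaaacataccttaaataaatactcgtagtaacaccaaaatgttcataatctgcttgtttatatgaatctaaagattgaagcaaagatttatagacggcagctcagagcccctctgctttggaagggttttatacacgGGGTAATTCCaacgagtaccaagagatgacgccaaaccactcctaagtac
Tlr9: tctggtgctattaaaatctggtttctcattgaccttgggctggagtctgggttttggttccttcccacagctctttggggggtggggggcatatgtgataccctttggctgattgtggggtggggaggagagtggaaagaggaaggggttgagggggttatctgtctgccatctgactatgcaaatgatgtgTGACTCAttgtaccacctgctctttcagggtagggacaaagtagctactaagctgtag
Tlr8: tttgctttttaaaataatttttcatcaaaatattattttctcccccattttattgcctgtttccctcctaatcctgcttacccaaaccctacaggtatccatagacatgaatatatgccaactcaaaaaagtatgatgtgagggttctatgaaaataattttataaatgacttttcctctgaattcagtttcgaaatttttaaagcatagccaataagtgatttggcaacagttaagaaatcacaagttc
The capitals mark overlapping NF-kB matches in Tlr2, an NF-kB match in Tlr6, an ETS core of the PU.1 type in Tlr1 and an AP-1 match in Tlr9. The searched letters were GGG and CC with any 5 bases between them for NF-kB, GGAAGT for the ETS core, TGANTCA for AP-1, and a pair of GAAA with any 2 bases between them for an interferon response core, on both strands. Of all 250-base promoter windows in the RefSeq table, 45.8% held the NF-kB letters, 19.7% the ETS letters, 6.75% the AP-1 letters and 2.98% the interferon letters. The stretches printed for Tlr2, Tlr6 and Tlr1 are shorter, at 91, 201 and 245 bases, and shares for those lengths were not taken. None of the 4 motifs was in the Tlr8 window. Tlr2 also held the ETS letters from 30 to 25 bases before its RefSeq start, inside the deposited gene and outside the stretch printed. The other RefSeq window of Tlr6, also inside the deposited gene, held the ETS letters and the interferon letters. A match is only a run of letters, and binding was not measured.

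The endosomal receptors for single-stranded RNA, Tlr7 and Tlr8, had the lowest log2 fold changes of the 10 members. Tlr8 (X:167242696-167264329, minus strand) was at 21.6, 11.8 and 19.2 CPM in clodrosome libraries A, B and C and at 60.9, 54.8 and 50.4 CPM in encapsome libraries A, B and C. Every clodrosome value lay far under every encapsome value, and clodrosome B was the lowest. Tlr8 was 3.13-fold lower, a log2 fold change of -1.64 ± 0.189 (95% interval -2.07 to -1.22, edgeR adjusted p 4.40e-04). Its neighbour Tlr7 (X:167304929-167330558, minus strand) was at 20, 15.5 and 17.5 CPM against 58.0, 40.8 and 46.7 CPM. Again the groups did not overlap, with encapsome A the highest. Tlr7 was 2.73-fold lower (-1.45 ± 0.141, interval -1.77 to -1.13, edgeR adjusted p 2.07e-04).

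Tlr9, the receptor for unmethylated CpG DNA (9:106222598-106226883, plus strand), was at 7.49, 7.27 and 5.12 CPM in clodrosome libraries and 16.6, 14.5 and 15 CPM in encapsome libraries. Its groups were far apart at a low level, and it was 2.31-fold lower (-1.20 ± 0.155, interval -1.55 to -0.86, edgeR adjusted p 7.81e-04). Tlr3, the receptor for double-stranded RNA (8:45395665-45411080, minus strand), was at 20, 18.5 and 19.5 CPM against 20, 19.1 and 18.5 CPM. These values interleaved, and the log2 fold change was 0.01 ± 0.0868 (edgeR adjusted p 0.939). Its interval of -0.18 to 0.21 leaves out changes as large as those of the other endosomal receptors. Of the Tlr3 exon bases, 7.32% are shared with Gm45542 on the opposite strand, and reads there were not counted.

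Other cell types that express nucleic acid receptors gave mixed values. Of 8 plasmacytoid dendritic cell markers, 0 were lower (against 13.0% of all genes) and 4 were higher (against 9.41%), namely Siglech, Ccr9, Klk1 and Cox6a2. Siglech was at 7.72 to 12.3 CPM in clodrosome skin against 1.78 to 4.99 CPM in encapsome skin. Clec4g went the other way at -1.77 on the log2 scale, at means under 1 CPM, and was not called (edgeR adjusted p 0.0771). Tcf4 and Bst2 were at -0.13 and -0.08 and were not called. The summed level of that list was 800 to 1040 CPM against 756 to 790 CPM, most of it from Ly6d (614 to 841 against 580 to 608 CPM), which was not called. Of 7 B cell markers, 6 were too low to test, Pax5 had 0 counts in all encapsome libraries, and Cd79b was lower by 1.43 on the log2 scale in its mean (edgeR adjusted p 0.0144). Of 10 dendritic and Langerhans cell markers, 2 (Cd209a and Itgax) were lower and 1 (Ccr7) was higher, against 13.0% and 9.41% of all genes. The part of these cells in the receptor values was not tested.

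Among the receptors of the cell surface, Tlr1 (5:64924679-64933563, minus strand) was at 24.9, 18 and 17.8 CPM in clodrosome libraries and 39.2, 49.6 and 44.2 CPM in encapsome libraries. The groups did not overlap, with clodrosome A the nearest to the controls. Tlr1 was 2.18-fold lower (-1.12 ± 0.143, interval -1.44 to -0.80, edgeR adjusted p 7.69e-04). Tlr6, which lies next to Tlr1 (5:64952031-64960097, minus strand), was at 15.2, 14.6 and 12.6 CPM against 18, 19.4 and 17.8 CPM. It was 1.30-fold lower (-0.38 ± 0.105, interval -0.61 to -0.14, edgeR adjusted p 0.0307). That call was lost without clodrosome C (adjusted p 0.105) and without encapsome A, B or C (0.0678, 0.119 and 0.0713), while the log2 fold change stayed between -0.44 and -0.30 when single libraries were left out. With all libraries it was also lost when ribosomal RNA share was a covariate (-0.34, edgeR adjusted p 0.0811).

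Tlr1 and Tlr6 are close paralogs, and the longest stretch common to both coding sequences is shown because a read wholly inside it matches both genes. It covers bases 1468 to 1696 of the 2388 coding bases of Tlr1 and bases 1507 to 1735 of the 2421 of Tlr6, 229 bases in all.
Tlr1 and Tlr6 coding: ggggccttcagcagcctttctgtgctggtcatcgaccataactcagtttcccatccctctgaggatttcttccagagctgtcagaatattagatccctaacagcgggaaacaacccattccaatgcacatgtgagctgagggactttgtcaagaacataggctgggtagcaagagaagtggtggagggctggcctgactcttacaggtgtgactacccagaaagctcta
Among windows of 150 bases, the length of 1 read, 4.30% of those in Tlr1 transcripts and 3.86% of those in Tlr6 transcripts were also in the other gene. Reads that could be placed on both genes would be left out of the counts, and how many there were was not measured.

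Tlr2 (3:83836272-83841767, minus strand), unlike its partners, was not lower in clodrosome skin. It was at 59.4, 46.9 and 47.0 CPM in clodrosome libraries and 35.3, 44.6 and 44.4 CPM in encapsome libraries. The groups did not overlap, but only by a small margin, with clodrosome A and encapsome A as the extremes. The log2 fold change of 0.31 ± 0.123 (interval 0.03 to 0.58) had an edgeR p of 0.0332 before and 0.105 after adjustment, so Tlr2 was not called. Within the libraries of low ribosomal RNA share (2 clodrosome, 1 encapsome) it was 0.61, and within those of high share (1 clodrosome, 2 encapsome) it was 0.06, both given without a test because 1 arm has no replicate. It was 0.18 without clodrosome A and 0.20 without encapsome A.

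For the lipopolysaccharide receptor Tlr4 (4:66827584-66930284, plus strand) the values were 50.7, 44.3 and 48.1 CPM in clodrosome libraries and 74.6, 88.6 and 83.6 CPM in encapsome libraries. These groups lay well apart with little spread inside each. Tlr4 was 1.72-fold lower (-0.78 ± 0.0874, interval -0.98 to -0.59, edgeR adjusted p 3.79e-04). Ly96, which encodes the MD-2 subunit that binds lipopolysaccharide, was at 7.96, 9.87 and 7.38 CPM against 13.7, 13.2 and 13.4 CPM and was lower as well (-0.68 ± 0.129, edgeR adjusted p 0.00542).

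Cd14 (18:36725067-36726798, minus strand), the co-receptor that delivers lipopolysaccharide to Tlr4 and lipopeptides to Tlr2, was at 207, 223 and 192 CPM in clodrosome libraries and 110, 165 and 161 CPM in encapsome libraries. All clodrosome values lay above all encapsome values, and encapsome A was the lowest. Cd14 was 1.43-fold higher (0.52 ± 0.144, interval 0.19 to 0.84, edgeR adjusted p 0.0312). The call was lost when clodrosome A, B or C was left out (adjusted p 0.0635, 0.0647 and 0.0532), at log2 fold changes of 0.52, 0.47 and 0.56. Without encapsome A it was 0.35 (adjusted p 0.0388), a smaller change that was still called. Cd14 thus rose while the macrophage markers fell. Of 11 tested neutrophil markers 2 (Retnlg and Ly6g) were higher (against 9.41% of all genes) and 0 lower, with a list median of -0.06. Mmp8, Cxcr2, Csf3r, Ltf, Mmp9 and Il1r2 had log2 fold changes of -0.32 to -0.06. S100a8, S100a9 and Camp were at 0.43 to 0.49, and none of these 3 or of the former was called. The list summed to 1550 to 2170 CPM against 1140 to 1830 CPM, groups that overlap, with S100a8 and S100a9 its most abundant genes. Of 8 monocyte markers 0 were higher and 3 lower (against 13.0% of all genes). The part of these cells in the Cd14 value was not tested.

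Myd88 (9:119335934-119341411, minus strand) was at 93.0, 73.9 and 81.8 CPM in clodrosome libraries and 82.5, 97.4 and 88.7 CPM in encapsome libraries. The groups overlapped, and the log2 fold change was -0.11 ± 0.0996 (interval -0.33 to 0.12, edgeR adjusted p 0.481). Within the libraries of low ribosomal RNA share the value was 0.09, with encapsome A as the only control, and within those of high share it was -0.35, with clodrosome B as the only clodrosome library. With 1 arm of a single library in each, neither value shows a direction. Of the Myd88 exon bases, 11.3% are shared with Acaa1a on the opposite strand, and reads there were not counted.

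**Figure D2:**
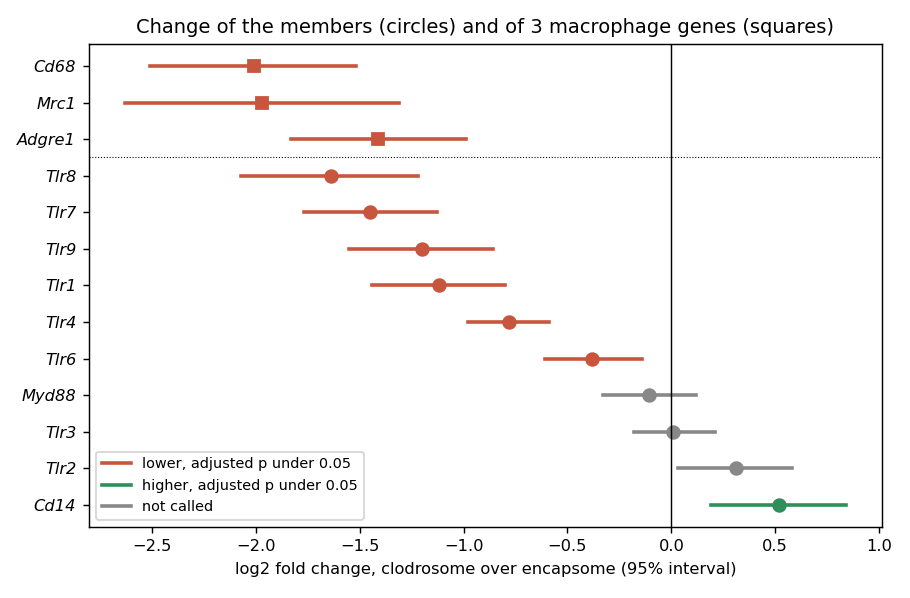
Log2 fold change of clodrosome against encapsome for each of the 10 genes (circles) and for Cd68, Mrc1 and Adgre1 (squares), with 95% intervals from the edgeR fit and colours for the call. Among the 10, Tlr8 lies lowest at -1.64, Cd14 highest at 0.52, and the intervals of Tlr3 and Myd88 include 0.

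Levels can be compared between genes only per length, as CPM per kb of exon. In encapsome skin Cd14 was the most abundant of the 10 at 83.8 ± 17.8 CPM per kb, followed by Myd88 at 34.8 ± 2.91. Tlr8, Tlr4, Tlr2, Tlr1 and Tlr7 came next, from 15.4 ± 1.47 down to 11.9 ± 2.14 CPM per kb, and neighbours among these 5 overlapped. Tlr6, Tlr9 and Tlr3 were the lowest, at 4.94 ± 0.231, 4.41 ± 0.319 and 3.69 ± 0.143 CPM per kb.

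In clodrosome skin the order of the receptors was different. Cd14 (120 ± 8.85 CPM per kb) and Myd88 (32.2 ± 3.74) still led, and Tlr2 at 17.0 ± 2.38 stood above every other receptor, with Tlr4 next at 8.59 ± 0.578. Tlr1, Tlr8, Tlr7, Tlr6 and Tlr3 followed between 6.04 ± 1.21 and 3.72 ± 0.157, each overlapping its neighbour in the order. Tlr9 was the lowest at 1.90 ± 0.377 CPM per kb.

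The 8 receptors summed to 57.3, 45.6 and 47.8 CPM per kb in clodrosome libraries and 81.5, 83.9 and 81.1 CPM per kb in encapsome libraries, with no overlap. The 4 endosomal receptors together were at 14.8 ± 2.11 against 35.4 ± 3.80 CPM per kb, and the 4 surface receptors at 35.4 ± 4.31 against 46.7 ± 4.62 CPM per kb. Endosomal receptors therefore made up 29.5 ± 1.58% of the sum in clodrosome skin and 43.1 ± 5.0% in encapsome skin. Tlr2 made up 33.7 ± 0.955% of the sum against 16.7 ± 2.06%, groups far apart, while the share of Tlr4 overlapped at 17.2 ± 1.12% against 18 ± 1.35%.

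**Figure D3:**
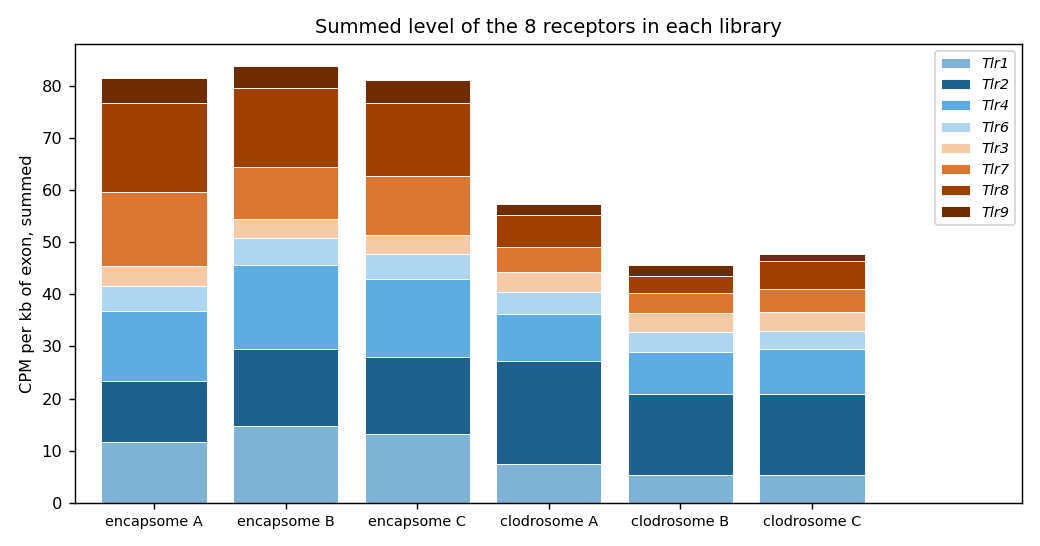
Summed level of the 8 Toll-like receptors in each library in CPM per kb, stacked by receptor. The sums are 45.6 to 57.3 in clodrosome libraries and 81.1 to 83.9 in encapsome libraries, and the Tlr2 segment takes up a larger share of each clodrosome bar.

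Ratios between genes that act as partners or lie side by side were taken within each library from CPM per kb, which removes any factor common to a library. The ratio of Tlr2 to Tlr1 was 2.65, 2.89 and 2.94 in clodrosome libraries and 1.0, 0.998 and 1.12 in encapsome libraries. The pair was thus near equal in control skin, and the ratio was 2.72-fold higher in clodrosome skin. The ratio of Tlr2 to Tlr6 was 4.47 ± 0.448 against 2.78 ± 0.337. The ratio of Cd14 to Tlr4 was 13.1, 16.1 and 12.8 against 4.71, 5.98 and 6.16, or 2.5-fold higher. The ratio of Myd88 to Tlr2 was 1.90 ± 0.115 against 2.54 ± 0.199.

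These 4 of the 7 ratios had groups that did not overlap, each with an exact two-sided permutation p of 0.1 (0.175 adjusted over the 7 ratios), the smallest p that 3 against 3 libraries can give. The other ratios overlapped. Ly96 to Tlr4 was 0.967 ± 0.212 against 0.895 ± 0.0973 (exact permutation p 0.7), Tlr7 to Tlr8 was 0.924 ± 0.201 against 0.769 ± 0.0998 (exact permutation p 0.5) and Tlr9 to Tlr7 was 0.444 ± 0.104 against 0.376 ± 0.0402 (exact permutation p 0.4). A design of this size cannot reach 0.05 for a single ratio.

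**Figure D4:**
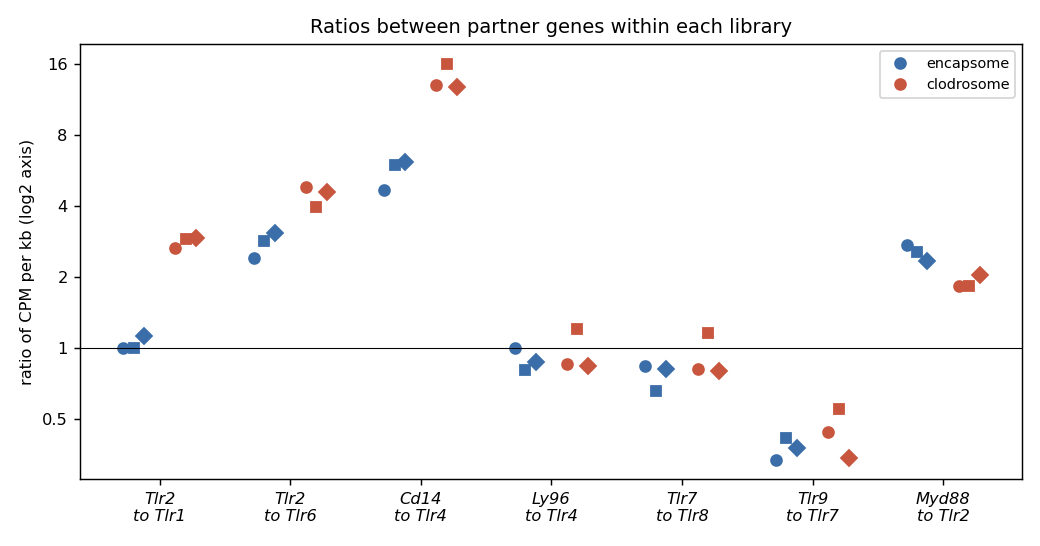
Ratios of CPM per kb within each library (log2 axis) for the 7 gene pairs, 1 point per library (circle A, square B, diamond C). Tlr2 to Tlr1, Tlr2 to Tlr6 and Cd14 to Tlr4 are higher in all 3 clodrosome libraries, Myd88 to Tlr2 is lower, and the other 3 pairs overlap.

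Set against the summed macrophage markers of the same library, all 10 members were higher in clodrosome skin without overlap, as were 95.4% of all genes tested, since the marker sum itself fell. The count of 10 is therefore close to the background. Tlr8 was at 1.58, 2.16 and 1.71 CPM per 100 CPM of macrophage markers in clodrosome libraries and 1.51, 1.45 and 1.48 in encapsome libraries, close to proportional in clodrosome A and C. Tlr7 was at 1.46, 2.84 and 1.56 against 1.44, 1.08 and 1.37, with clodrosome B apart. Cd14 was at 15.1, 40.9 and 17.1 against 2.73, 4.37 and 4.72. Clodrosome B, the library with the lowest marker sum, was the highest in each of these 3 ratios. The fibroblast markers also summed lower, at 4310, 2250 and 3150 CPM in clodrosome libraries against 9580, 9240 and 8110 CPM in encapsome libraries. Ratios to that sum were not taken, so the values here do not single out macrophages.

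Of 6 genes that encode the other TLRs and the related receptor pair of Cd180 and Ly86, 4 were lower and 0 higher (13.0% of all genes tested were lower and 22.4% were called in either direction), with a median log2 fold change of -0.87. Cd180, a TLR-like protein best known from B cells and also made by macrophages, was at 10.4 ± 1.35 CPM against 47.1 ± 9.94 CPM (-2.16 ± 0.164, edgeR adjusted p 9.16e-05). Its partner Ly86 was at 30.6 ± 3.05 against 89.0 ± 9.90 CPM (-1.53 ± 0.106). Tlr13, a mouse receptor for bacterial ribosomal RNA, was at 66.0 ± 12.2 against 126 ± 11.2 CPM (-0.93 ± 0.127, edgeR adjusted p 0.00108). Tlr5, the flagellin receptor, was lower by 0.42 on the log2 scale in its mean, and its edgeR adjusted p of 0.0463 was lost as a call under 9 of 13 alternative settings. Tlr11 and Tlr12 were not called, at means under 1.5 CPM.

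The next list held 11 genes that deliver ligands to the receptors or fold, carry or cut them. Of these, 6 were lower (against 13.0% of all genes) and 0 higher, with a median of -0.32. Unc93b1, the chaperone that brings nucleic acid receptors to endosomes, was at 129, 72.6 and 91.4 CPM in clodrosome libraries and 240, 218 and 210 CPM in encapsome libraries (-1.19 ± 0.177, edgeR adjusted p 0.00169). The groups did not overlap, and clodrosome B was lowest, as for all 12 macrophage markers. Among the members clodrosome B was lowest for Tlr4, Tlr7 and Tlr8 and for the uncalled Tlr2, Tlr3 and Myd88. Clodrosome C was lowest for Tlr1, Tlr6, Tlr9 and Cd14, and the share over all genes was not counted. The endosomal proteases Lgmn and Ctsb were lower at -1.60 ± 0.173 and -1.11 ± 0.139 (edgeR adjusted p 3.24e-04 and 7.01e-04). Ctsl, the other such protease of the list, was not lower, at 3540 ± 449 against 3440 ± 254 CPM (0.04 ± 0.115, edgeR adjusted p 0.831).

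Past the receptors, most signalling genes did not pass the test. Of 15 adaptors and proximal kinases, 4 were lower (against 13.0% of all genes), 1 higher (against 9.41%) and 10 not called, with a median of 0.04. Ticam2, the adaptor that links Tlr4 to Ticam1, was at 4.02 ± 0.388 against 12 ± 1.69 CPM (-1.57 ± 0.147, edgeR adjusted p 1.81e-04), with 14.5% of its exon bases shared with Tmed7. The kinases Irak4 and Irak1 were slightly lower (-0.46 ± 0.0909 and -0.32 ± 0.0695, edgeR adjusted p 0.00713 and 0.0105). Irak2 was slightly higher (0.33 ± 0.0911, edgeR adjusted p 0.0300), a call lost under 5 of 13 alternative settings.

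Of 14 IKK, NF-kB and IRF genes, 3 were lower and 0 higher, with a median of -0.03. With 13.0% of all genes lower, a count of 3 among 14 is near the background. The 3 genes were Irf5, Irf7 and Irf8. Irf8, a factor of the macrophage and dendritic cell lineages, was at 28.2 ± 3.55 against 52.4 ± 4.92 CPM (-0.90 ± 0.108, edgeR adjusted p 5.73e-04). Irf5 and Irf7, which act downstream of Myd88, were lower at -0.75 ± 0.079 and -0.49 ± 0.112 (edgeR adjusted p 2.94e-04 and 0.0133), the latter call lost without encapsome C (adjusted p 0.0547), and 14.1% of the Irf5 exon bases are shared with Tnpo3. Irf3, which acts downstream of Tlr3 and Tlr4, had a log2 fold change of 0.21 ± 0.0685 and was not called (edgeR adjusted p 0.0561).

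Of 15 genes listed as negative regulators, 5 were higher (against 9.41% of all genes), 0 lower and 10 not called, with a median of 0.20. Some listed genes, Nfkbiz among them, are not only inhibitors, so the count is no measure of inhibition. Nfkbid, a nuclear I-kappa-B protein, was at 21.1, 18.4 and 19.9 CPM against 7.59, 10.6 and 12 CPM (0.98 ± 0.157, edgeR adjusted p 0.00240). Its relative Nfkbiz rose by 0.64 ± 0.117, the ubiquitin-editing enzyme gene Tnfaip3 (A20) by 0.47 ± 0.097 and its binding partner Tnip1 by 0.44 ± 0.0974 (edgeR adjusted p 0.00467, 0.00822 and 0.0118).

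Of 16 products of TLR signalling, listed as secreted, 15 were tested, with a median of 0.79. Of these, 9 were higher (against 9.41% of all genes), 1 lower (against 13.0%) and 5 not called. The 9 include Ptgs2, which encodes an intracellular enzyme (0.87 ± 0.147, edgeR adjusted p 0.00321). Ifnb1 had 0 counts in all 6 libraries. Lcn2, an iron-scavenging antibacterial protein, was at 903, 1300 and 1000 CPM in clodrosome libraries and 280, 334 and 355 CPM in encapsome libraries (1.72 ± 0.147, edgeR adjusted p 1.23e-04). The neutrophil attractant Cxcl2 was at 242, 188 and 173 against 67.5, 87.4 and 112 CPM (1.18 ± 0.182, edgeR adjusted p 0.00200). Both genes had groups that lay well apart. Ccl5, an attractant of T cells, and the acute-phase gene Saa3 were also higher (1.69 ± 0.167 and 0.94 ± 0.129, edgeR adjusted p 2.23e-04 and 0.00111). The gene called lower, named after its values were seen, was Il10, an anti-inflammatory cytokine, at 1.26, 1.05 and 0.691 against 2.45, 2.38 and 1.71 CPM (-1.09 ± 0.28, edgeR adjusted p 0.0224). Many of these products are also made by keratinocytes and neutrophils. The keratinocyte markers summed to 23900 to 24400 CPM in clodrosome libraries and 16500 to 20400 CPM in encapsome libraries. Of these 7 markers, 4 were higher (against 9.41% of all genes) and 2 lower (against 13.0%), and their part in the result was not tested.

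**Figure D5:**
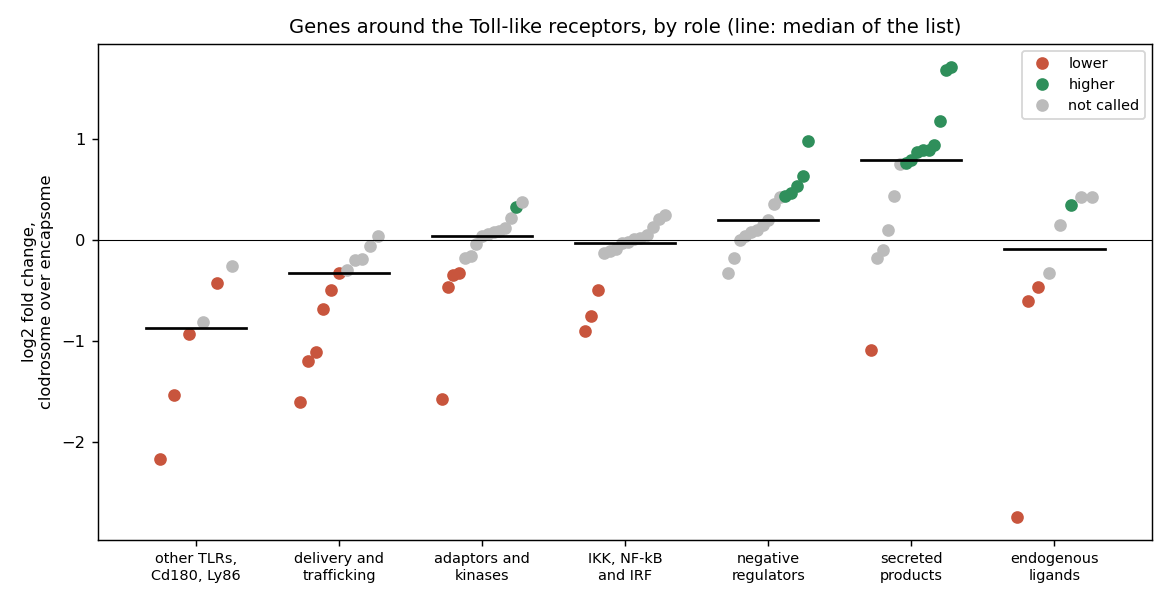
Log2 fold change of each tested gene in the 7 TLR pathway lists, 1 point per gene, with called genes marked and the list median as a line. Medians run from -0.87 for the other TLRs with Cd180 and Ly86 to 0.79 for the list labelled secreted products, against 0.01 for all genes tested.

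Of 9 endogenous molecules reported as TLR ligands, 8 were tested, with a median of -0.09. Among them 3 were lower (against 13.0% of all genes), 1 higher (against 9.41%) and 4 not called. The lower genes encode extracellular matrix: tenascin C (Tnc, -2.74 ± 0.217, edgeR adjusted p 9.73e-05), biglycan (Bgn, -0.60 ± 0.129, 0.00994) and fibronectin (Fn1, -0.46 ± 0.137, 0.0383, lost under 4 of 13 alternative settings). They fell beside the fibroblast markers, whose part in the result was not tested. Hspd1, a mitochondrial chaperone, was higher (0.35 ± 0.0746, edgeR adjusted p 0.0102), a call lost without clodrosome C or encapsome B (adjusted p 0.0519 and 0.0553). S100a8 and S100a9, the calprotectin subunits made by neutrophils and stressed keratinocytes, were at 0.43 each on the log2 scale and were not called (edgeR adjusted p 0.111 and 0.124).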

How the data were processed

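Sequencing covered polyadenylated RNA in 6 libraries of mouse dorsal skin. The deposited values are raw counts per gene, made by the authors with featureCounts 1.6.2 and the GRCm38 annotation of Ensembl 102, per the file headers. The table also holds each gene's exon length as another value, per the file headers. The submitters' processing notes also name Trimmomatic 0.36, HISAT2 2.2.1, StringTie 2.2.1, DESeq2 1.34.0 and mm10. The header's command sets no option for paired ends, strand or reads on several genes. With that tool's defaults both ends of a pair are counted, without regard to strand, and reads mapped to several places or overlapping several genes are left out. Between 63.6% and 69.7% of low counts per library were even, so counting intervals are wider than the counts alone give.

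Columns were matched to groups by name, and libraries A, B and C are table columns that do not pair between groups. No other sample columns were present (0). Library pairs within a group had a chi-square of 9.97 to 59.4 per gene, so no library looked deposited under 2 names. Genes were tested with edgeR 4.0.16 in R 4.3.3 (TMM, factors 0.982 to 1.02, filterByExpr with minimum count 10 and minimum total 15, glmQLFit and glmQLFTest with no covariate). Of 17988 genes tested, 4035 (22.4%) were called and 6433 had an unadjusted p under 0.05. The SE is the log2 fold change over the root of F, and intervals are 95%. DESeq2 1.42.0, other filters and scalings, and left-out libraries were alternatives.

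The members and the gene lists were chosen with earlier results of these data known. Named genes are the 10 members, 3 depletion checks, Ly96 and up to 4 genes of smallest p in each pathway list. Genes from marker lists, Il10, Ptgs2, S100a8, S100a9 and the untested or uncalled genes named beside counts were chosen after their values were seen. Promoters are RefSeq windows, and read windows of 150 bases come from GENCODE transcripts. The test was tried on simulated data.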

Additional observations from a re-analysis of the deposited data

How the results depend on the processing

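No paired analysis was possible because the table's columns carry none of the replicate numbers of the sample titles. Of the 10 members, 6 were called lower and 5 to 6 were under 13 other settings, with Tlr6 the member lost. Tlr1, Tlr4, Tlr7, Tlr8 and Tlr9 kept their calls in all 13. The 1 member called higher became 2 with no low-count filter as Tlr2 joined Cd14, and was 0 to 1 with single libraries left out. All genes called were 2477 to 4396 (lower 1656 to 2432, higher 821 to 1964) with single libraries left out, against 4035 (2343 and 1692), with fewest without encapsome B and 2642 without clodrosome C. Fits within a ribosomal RNA share were added after seeing the data, and each has an arm of 1 library that is assumed to vary like the other group, so their counts and signs test nothing. The libraries of low share (2 clodrosome against encapsome A alone) gave 2333 genes (1479 lower and 854 higher) and 2 members higher. Genes called in the pathway lists were 29 to 43. Tlr3, never called, changed sign at -0.02 with the deepest library (clodrosome A) thinned, -0.04 with ribosomal RNA share as covariate and -0.04 in the libraries of high share, and was -0.01 to 0.05 with single libraries left out. Myd88, never called with all libraries, was 0.09 in those of low share. Between 4 and 5 of the 7 ratios had groups apart when single libraries were left out.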
